A study of Mus musculus with 6 samples.

Results

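The mouse Schlafen genes Slfn1, Slfn2, Slfn3, Slfn4, Slfn5, Slfn8 and Slfn9 were followed by gene name in bulk poly(A) RNA of the piriform cortex, a cortical area that processes odours. They are 7 of the 53715 genes of the count table. The family was picked with its difference between the groups already known, so its levels, fold changes and calls are given as a description. The calls come from the fit of all genes and are no independent test of the family, and intervals on summed counts cover counting error only. The Caspase3 group was 3 libraries from Gad2-Cre mice given AAV-DIO-Caspase3, a virus whose caspase 3, a protease that executes apoptosis, is expressed where Cre is present. The GFP group was 3 libraries from Gad2-Cre mice given AAV-DIO-GFP. All 6 libraries share the Gad2-Cre allele, which drives Cre in GABAergic neurons, and an injection into the piriform cortex of a single side. Age, sex, the side sampled and the interval after injection are not given in the sources used here. Whether each library is a mouse of its own is not stated either. The p-values below therefore speak only to scatter among libraries, some of which may be technical.

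Schlafen proteins take their name from the German verb for sleeping, because the first mouse members were found as genes that slow the growth of developing T cells. Members share an N-terminal core that in several family members cuts or binds transfer RNA, and the long members add a helicase-like C-terminal part. Interferon induces most mouse members, and immune cells are their best-known site of expression.

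Each Caspase3 library held 20424581 to 24227361 counts, and each GFP library 22101015 to 26268377. In a library, 3 counts were worth 0.118 to 0.142 CPM, where CPM stands for counts scaled to a common library size with TMM factors. Gad2, the gene whose cells were targeted, stood at 26.7, 38.5 and 38.0 CPM in Caspase3 replicates 1, 2 and 3 and at 92.4, 118.0 and 103.7 CPM in GFP replicates 1, 2 and 3. Its log2 fold change was -1.60 (edgeR adjusted p = 0.00371, and 0.0521 without GFP replicate 2). The GABAergic markers Gad1 and Slc32a1 were lower in each Caspase3 library than in any GFP library. Neither passed (adjusted p = 0.130 and 0.163). The 5 markers of cortical excitatory neurons summed to 2022 to 2204 CPM in the Caspase3 group and 1676 to 2642 CPM in the GFP group. GFP replicate 3 stood apart in striatal projection neuron markers. Their sum was 1078 CPM there, 197 and 282 CPM in the other GFP libraries and 181 to 206 CPM in the Caspase3 libraries. In bulk RNA, a change in the number of cells of a type and a change in RNA per cell cannot be told apart.

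All 7 genes lie on chromosome 11 (GRCm38). Slfn5 (ENSMUSG00000054404) runs from 82951349 to 82964840 on the plus strand. Slfn9 (ENSMUSG00000069793) runs from 82978390 to 82991830 and Slfn8 (ENSMUSG00000035208) from 83002158 to 83020810, both on the minus strand. The plus strand then holds Slfn2 (ENSMUSG00000072620) from 83065112 to 83070678, Slfn1 (ENSMUSG00000078763) from 83116849 to 83122670, Slfn4 (ENSMUSG00000000204) from 83175186 to 83190216 and Slfn3 (ENSMUSG00000018986) from 83191330 to 83215154. With the pseudogene Slfn10-ps, the antisense gene Slfn5os and Slfn14 they fill a stretch of 344 kb, from 82942341 to 83286726. The longest annotated coding sequences fall into classes. Slfn1 and Slfn2 are short, with 337 and 378 codons (stop codon not counted), Slfn4 and Slfn3 are intermediate, with 602 and 640, and Slfn5, Slfn8 and Slfn9 are long, with 884, 910 and 910.

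RefSeq promoter windows (GRCm38.p6, 250 bases before to 50 after a start site) were at hand for 7 of 7 members. The motifs were searched on both strands. The interferon-stimulated response element, a binding sequence found in promoters of many interferon-induced genes, was taken as GAAA, a gap of 2 bases and GAAA. The ETS-IRF composite element was taken as GGAA, a gap of 2 bases and GAAA. A 9-base stretch, ACTTCCTGG, was added after the sequences had been read, because it recurred in them. The interferon-stimulated response element occurs in the windows of the long members Slfn5, Slfn8 and Slfn9 and in 3.44% of 32851 mouse promoter windows. ACTTCCTGG occurs in the windows of Slfn1, Slfn2, Slfn3 and Slfn4 and in 0.843% of all windows. Because it was picked for recurring in these members' windows, nothing is read from that comparison. The composite element occurs in Slfn2 (2.72% of all windows), where it overlaps ACTTCCTGG. The GAS element, taken as TTCNNNGAA with N for any base, was also searched. It occurs in 8.3% of all windows and had no match in the window of any member. Slfn14, which is also long (899 codons) but not among the 7, has a window with no match to any of these motifs, so the long genes of the cluster do not all carry the element. The stretches below are shown because they differ between the long and the shorter members. Each is written 5′ to 3′ on the strand of its gene, with 25 bases on either side of the match and the match in capitals.
Slfn8 (minus strand, chr11:83020824-83020883), interferon-stimulated response element: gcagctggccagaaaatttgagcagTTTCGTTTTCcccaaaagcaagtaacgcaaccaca
Slfn9 (minus strand, chr11:82991841-82991900), the same element: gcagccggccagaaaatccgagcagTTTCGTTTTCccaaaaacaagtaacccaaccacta
Slfn5 (plus strand, chr11:82951922-82951981), the same element: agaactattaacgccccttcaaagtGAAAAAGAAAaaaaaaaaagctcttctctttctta
Slfn2 (plus strand, chr11:83065028-83065087), composite element: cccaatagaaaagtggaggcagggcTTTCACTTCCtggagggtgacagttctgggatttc
Slfn1 (plus strand, chr11:83116721-83116779), 9-base stretch: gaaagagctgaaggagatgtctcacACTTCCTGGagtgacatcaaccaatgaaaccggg
Slfn4 (plus strand, chr11:83175088-83175146), 9-base stretch: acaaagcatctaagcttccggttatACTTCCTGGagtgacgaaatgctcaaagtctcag
Slfn3 (plus strand, chr11:83191263-83191321), 9-base stretch: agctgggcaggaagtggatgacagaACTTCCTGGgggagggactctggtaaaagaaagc

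In Slfn8 and Slfn9 the element is read on the opposite strand and lies close to the start site, at -48 to -39 and at -45 to -36. The Slfn5 match lies at -155 to -146 within a run of A, and its start site at 82952102 is internal to the gene as the count table annotates it. A second Slfn8 window, for a start site at 83020722, holds the same match. The Slfn1 start site used here, 83116820, lies before the first base of the gene as counted, 83116849. These matches are letters in a window, and no binding was measured.

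**Figure D1:**
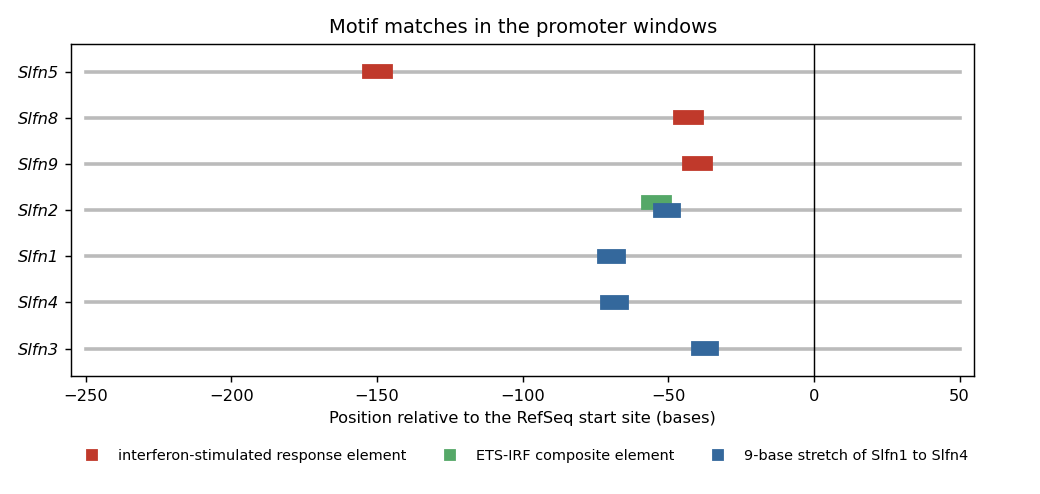
Positions of motif matches (coloured blocks) in the promoter window of each Schlafen gene, in bases from the RefSeq start site at 0; grey lines span each 300-base window. The interferon-stimulated response element appears in the windows of Slfn5, Slfn8 and Slfn9, and the 9-base stretch in those of Slfn2, Slfn1, Slfn4 and Slfn3, at -74 to -34.

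The study asked how the piriform transcriptome differs once Gad2 neurons are lost, a loss that was not measured here beyond RNA levels. Slfn1, Slfn2, Slfn5, Slfn8 and Slfn9 were higher in the Caspase3 group, by 2.19-fold for Slfn5 and by 7.63-fold to 16.9-fold for the other 4. Slfn3 had a fold of 2.35 with a wide spread, and Slfn4 was at the edge of detection. In the edgeR fit of all genes, 5 of the 6 tested members were among the genes called higher (Benjamini-Hochberg adjusted p under 0.05), as were 1.53% of the 16721 genes tested, and none was called lower, as were 0.114%. Slfn3 did not pass. All Caspase3 libraries exceeded all GFP libraries in CPM for 6 of 6 tested members and for 8.96% of all tested genes. Because the family was chosen on this contrast, nothing is read from these shares. Slfn4 failed the filter on low counts. Slfn1 passed it through the Caspase3 libraries alone (3 libraries at or above 0.443 CPM against 0 GFP libraries), so a tested Slfn1 had to differ. For the filter, CPM was taken on library totals without TMM factors.

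Slfn8, a long member related to human SLFN11 and to the transfer RNA nuclease SLFN13, stood at 32.0, 24.1 and 12.4 CPM in Caspase3 replicates 1, 2 and 3, against 2.56, 1.47 and 1.49 CPM in GFP replicates 1, 2 and 3. The lowest Caspase3 library was 4.85 times the highest GFP library. Its means were 22.8 ± 9.86 CPM in the Caspase3 group and 1.84 ± 0.626 CPM in the GFP group (SD, n = 3 each), a log2 fold change of 3.64 ± 0.37 (SE).

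Slfn9, the neighbour of Slfn8 and the member closest to it in transcript sequence, stood at 13.7, 11.9 and 4.89 CPM in Caspase3 replicates 1, 2 and 3, against 1.07, 0.752 and 0.571 CPM in GFP replicates 1, 2 and 3. The groups were again well separated, with Caspase3 replicate 3 low in its group. Means were 10.2 ± 4.65 CPM in the Caspase3 group and 0.798 ± 0.254 CPM in the GFP group (SD, n = 3 each). The log2 fold change was 3.66 ± 0.42 (SE), close to that of Slfn8. Of all 50-base stretches in Slfn8 transcripts, 9.3% also occur in Slfn9 and 10.1% in Slfn10-ps, and of those of Slfn9 6.52% occur in Slfn8 and 8.1% in Slfn10-ps. At 100 bases the shares with any other gene were 3.38% for Slfn8 and 3.71% for Slfn9, so reads from a small part of each gene could be divided between them.

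Slfn5, a long member whose human counterpart restrains interferon-induced transcription, was the most abundant in either group. It stood at 58.9, 44.2 and 32.3 CPM in Caspase3 replicates 1, 2 and 3, against 22.3, 16.2 and 23.3 CPM in GFP replicates 1, 2 and 3. The groups did not overlap, but the lowest Caspase3 library was only 1.39 times the highest GFP library. Averages were 45.2 ± 13.3 CPM in Caspase3 libraries and 20.6 ± 3.83 CPM in GFP libraries (SD, n = 3 each), a log2 fold change of 1.13 ± 0.22 (SE). An exon of Slfn5 overlaps the antisense gene Slfn5os, which held 2 counts over the Caspase3 libraries and 3 over the GFP libraries, against 4452 counts of Slfn5 in all.

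Slfn2 is the short member whose loss in mice costs T cells and monocytes their quiescence, and which shields transfer RNA from cleavage in activated T cells. Its levels were 12.7, 11.1 and 6.07 CPM in Caspase3 replicates 1, 2 and 3, against 1.35, 1.43 and 1.1 CPM in GFP replicates 1, 2 and 3. All GFP libraries lay within a narrow band far below the Caspase3 libraries. With averages of 9.93 ± 3.43 CPM in the Caspase3 group and 1.29 ± 0.172 CPM in the GFP group (SD, n = 3 each), the log2 fold change was 2.93 ± 0.30 (SE).

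Slfn1, the founding short member, known for slowing T cell growth, was counted 32, 38 and 18 times in Caspase3 replicates 1, 2 and 3 and 3, 2 and 0 times in GFP replicates 1, 2 and 3. These amount to 1.52, 1.73 and 0.710 CPM in the Caspase3 libraries, against 0.140, 0.0792 and 0 CPM in the GFP libraries. It is close to undetected in the GFP group, and its log2 fold change of 4.08 ± 0.66 (SE) is the largest and the least precise. Without GFP replicate 1 it was 4.81. From the summed counts, 88 in the Caspase3 group and 5 in the GFP group, the ratio of Caspase3 to GFP at equal depth was 17.9 with an exact 95% interval of 7.37 to 56.4, which covers counting error only.

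Slfn3, an intermediate member linked in rodents to the differentiation of gut epithelium, stood at 3.55, 1.55 and 1.85 CPM in Caspase3 replicates 1, 2 and 3, against 1.03, 1.03 and 0.878 CPM in GFP replicates 1, 2 and 3. Caspase3 replicate 1 was well above the other Caspase3 libraries, and the groups were separated by a factor of 1.5. Its log2 fold change was 1.23 ± 0.35 (SE), and it did not pass in the fit of all genes. At 50 bases, 7.39% of its transcript stretches are shared with Slfn4 and 6.45% with Gm11427.

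Slfn4, the intermediate member known from macrophages and myeloid-derived cells, was counted 4, 3 and 1 times in Caspase3 replicates 1, 2 and 3 and 0, 2 and 0 times in GFP replicates 1, 2 and 3. The groups overlap. From 8 counts in the Caspase3 group and 2 in the GFP group, the ratio was 4.06 with an exact 95% interval of 0.81 to 39.2, so a difference was not detectable at this depth.

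**Figure D2:**
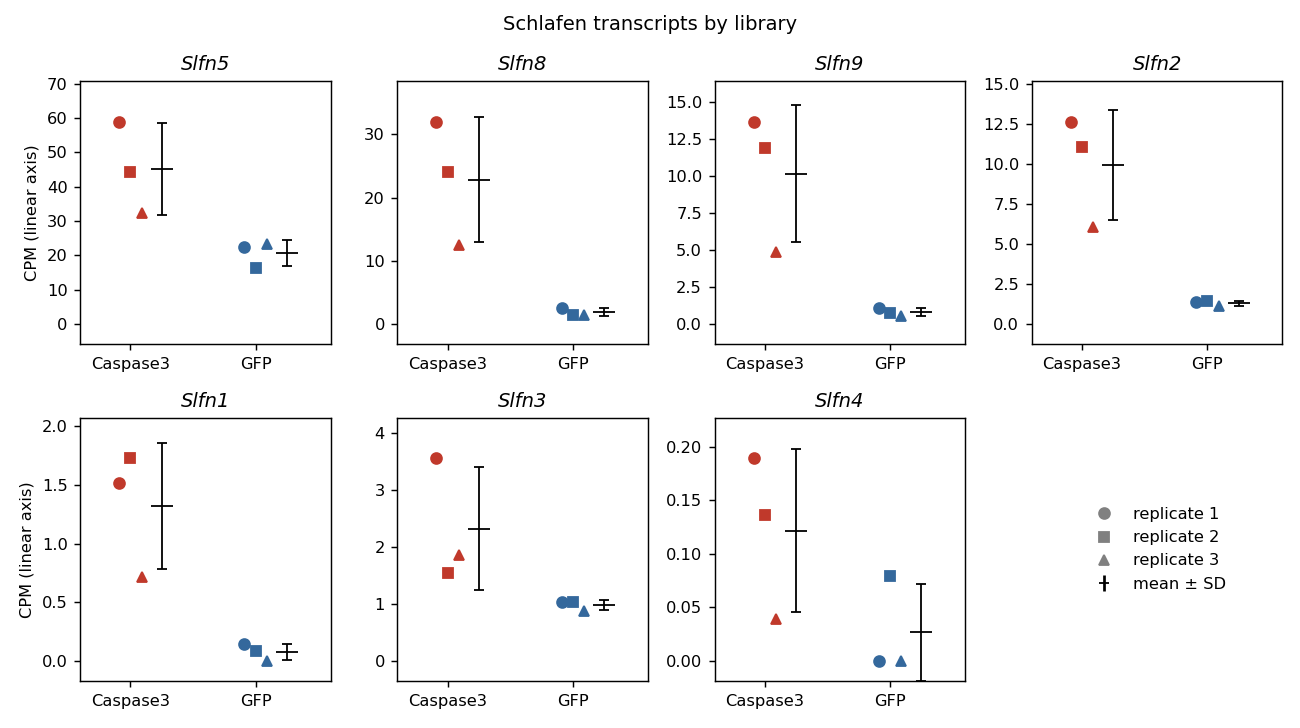
CPM of each member (linear axis, own scale per panel) in the 3 Caspase3 libraries and the 3 GFP libraries; symbols mark replicates, the black mark and bar the mean ± SD. Values of the groups do not overlap for any panel except that of Slfn4, and Caspase3 replicate 3 (triangle) is lowest in its group for Slfn5, Slfn8, Slfn9, Slfn2, Slfn1 and Slfn4.

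The remaining rows with a Slfn name were scarce. Slfn10-ps, a transcribed pseudogene, was counted 9, 12 and 11 times in Caspase3 replicates 1, 2 and 3 and 3, 4 and 4 times in GFP replicates 1, 2 and 3, a ratio of 2.95 (exact 95% interval 1.45 to 6.49, counting error only). It failed the filter and was not tested. Slfn14, known as a nuclease of ribosomes in red cell precursors, had 4 counts in the Caspase3 group and 1 in the GFP group, and its interval ran from 0.402 to 199.96. Slfnl1, a Schlafen-like gene on chromosome 4, had no count in any library.

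Levels of different members can be compared per length, for which the deposited FPKM values were used. In the Caspase3 group, Slfn5 (7.06 ± 2.05 FPKM), Slfn2 (5.90 ± 2.02 FPKM) and Slfn8 (5.52 ± 2.36 FPKM, SD, n = 3 each) had overlapping ranges, although Slfn5 was above Slfn2 within each library. Slfn9 followed at 1.69 ± 0.768 FPKM, above Slfn1 (0.700 ± 0.287 FPKM) within each library although their ranges overlap. Slfn3 at 0.671 ± 0.308 FPKM could not be ordered against Slfn1, and Slfn4 came last at 0.0304 ± 0.0189 FPKM. In the GFP group, Slfn5 stood alone at 3.25 ± 0.589 FPKM, ahead of Slfn2 at 0.776 ± 0.107, Slfn8 at 0.449 ± 0.152, Slfn3 at 0.286 ± 0.0263 and Slfn9 at 0.134 ± 0.0425 FPKM. No neighbours in that order overlapped down to Slfn9. Slfn1 at 0.0392 ± 0.0375 and Slfn4 at 0.0067 ± 0.0116 FPKM came last and overlapped. Slfn3 thus ranked above Slfn9 in each GFP library, whereas Slfn9 ranked above Slfn3 in each Caspase3 library.

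The make-up of the family therefore differed between the groups. As a share of the family's counts per base, Slfn5 made up 32.2%, 30.5% and 37.7% in Caspase3 replicates 1, 2 and 3, against 63.8%, 60.02% and 72.8% in GFP replicates 1, 2 and 3. Slfn8 averaged 25.04 ± 2.38% in the Caspase3 group and 8.99 ± 2.13% in the GFP group, and Slfn2 averaged 27.4 ± 1.41% in the Caspase3 group and 15.95 ± 3.68% in the GFP group (SD, n = 3 each). Slfn9 averaged 7.57 ± 1.37% in Caspase3 libraries and 2.70 ± 0.72% in GFP libraries. As a share of counts not divided by length, Slfn5 averaged 50.1% in the Caspase3 group and 80.2% in the GFP group, Slfn8 24.3% in the Caspase3 group and 7.15% in the GFP group, and Slfn2 10.8% in the Caspase3 group and 5.18% in the GFP group. The place of Slfn2, a short transcript, thus depends on the scale. Per base, the share of Slfn3 was lower in the Caspase3 group, at 3.20 ± 1.08% against 5.87 ± 1.06%. Summed over the 7 members, the family reached 122.6, 94.6 and 58.3 CPM in Caspase3 replicates 1, 2 and 3, against 28.4, 21.0 and 27.3 CPM in GFP replicates 1, 2 and 3. The means had a ratio of 3.59, with Slfn5, whose fold is the smallest, as the largest term.

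**Figure D3:**
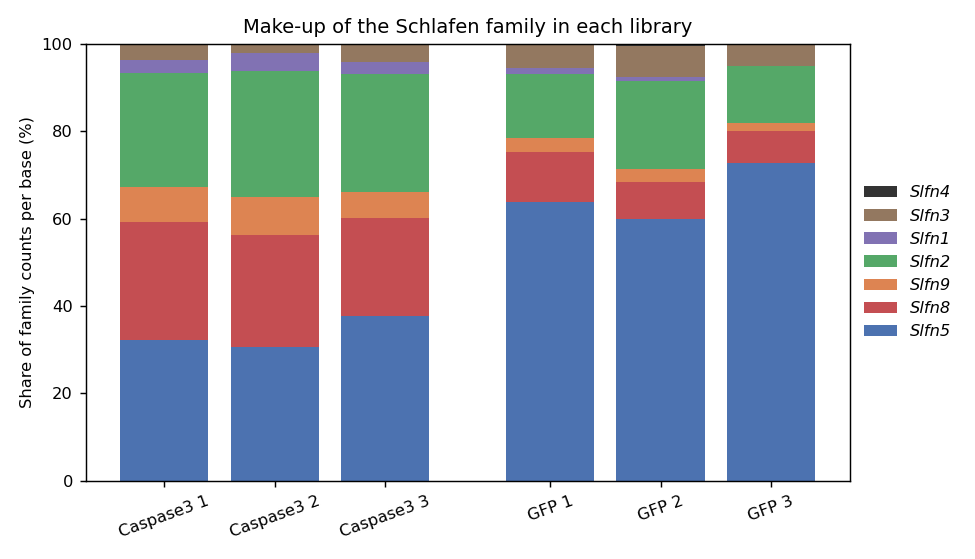
Stacked shares (percent) of the 7 members in the family's counts per base of gene length, 1 bar per library, Caspase3 libraries left and GFP libraries right. Slfn5 holds 30.5% to 37.7% in the Caspase3 libraries and 60.02% to 72.8% in the GFP libraries, with Slfn8 and Slfn2 taking larger shares in the Caspase3 libraries.

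Within the Caspase3 group the members were graded alike. Caspase3 replicate 1 was highest for 5 of 6 tested members and Caspase3 replicate 3 lowest for 5 of 6. The exceptions were Slfn1, highest in Caspase3 replicate 2, and Slfn3, lowest there. The highest Caspase3 library exceeded the lowest by 1.82-fold for Slfn5 and by 2.8-fold for Slfn9. The same grading held widely. Of the 255 genes called higher over the whole table, 89.8% were highest in Caspase3 replicate 1 and 72.9% lowest in Caspase3 replicate 3. After each group's mean was subtracted, log2 CPM of Slfn8 and Slfn9 had a Pearson r of 0.957 over the 6 libraries, Slfn9 and Slfn2 of 0.940 and Slfn5 and Slfn1 of 0.216. These correlations describe 6 libraries that each member shares.

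Schlafen genes are known targets of interferon, whose receptors signal through Jak kinases to Stat and Irf transcription factors. Of 17 tested receptors, kinases, transcription factors and inhibitors of the pathway, 7 rose in the Caspase3 group, none fell and 10 did not pass, beside 1.53% called higher and 0.114% called lower among all tested genes. The list's median log2 fold change was 0.45, against -0.0011 over all tested genes. The list was drawn up with earlier results of these data known and includes genes already known to have risen here. Usp18, which restrains the type I interferon receptor, rose by 4.31 ± 0.45 on the log2 scale (SE; edgeR adjusted p = 0.00405), and Irf7, which amplifies interferon transcription, by 4.11 ± 0.44 (adjusted p = 0.00405). Irf9, the DNA-binding part of the complex that acts on the response element, was at 55.3, 28.2 and 26.7 CPM in Caspase3 replicates 1, 2 and 3, against 8.76, 6.26 and 7.64 CPM in GFP replicates 1, 2 and 3. It rose by 2.28 on the log2 scale, with an SE of 0.28 (adjusted p = 0.00569). All 7 called genes were highest in Caspase3 replicate 1 and lowest in Caspase3 replicate 3. Exons of Irf7 and Irf9 overlap those of Phrf1 and Rnf31, so their counts could hold reads of these neighbours. The type I receptor subunits Ifnar1 and Ifnar2 had log2 fold changes of 0.07 and 0.45, and neither passed (adjusted p = 0.855 and 0.338). Irf1 lost its call without GFP replicate 3 (adjusted p = 0.0631), and no gene of the list passed without GFP replicate 2 (adjusted p of the 7 called, 0.0582 to 0.115). A part of interferon signalling in the Schlafen levels was not tested.

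Genes of the processes in which Schlafen proteins are known to act mostly did not pass. Of 18 tested genes of transfer RNA cleavage and ribosome stress, 2 rose and 0 fell, beside 1.53% and 0.114% of all tested genes. The list's median log2 fold change was 0.03. Those that rose were Samd9l, an interferon-induced antiviral gene, with a log2 fold change of 2.22 ± 0.31 (SE; edgeR adjusted p = 0.00870), and Eif2ak2, the kinase that answers to double-stranded RNA, with 1.92 ± 0.28 (adjusted p = 0.0102). An exon of Eif2ak2 overlaps one of Gm26637. Neither passed without GFP replicate 2 (adjusted p = 0.0771 and 0.0862). Ang, the ribonuclease from which Slfn2 is known to shield transfer RNA, was at 1.35 CPM in the Caspase3 group and 0.940 CPM in the GFP group and did not pass (adjusted p = 0.675).

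Among 19 tested replication stress genes, which include partners of human SLFN11 at stalled forks, 1 rose and none fell (median log2 fold change 0.14), beside 1.53% higher and 0.114% lower among all tested genes. It was Mcm6, a subunit of the replicative helicase (log2 fold change 0.74 ± 0.15 (SE), edgeR adjusted p = 0.0463), which missed the threshold on leaving out each of the 6 libraries in turn (0.0893 to 0.184). Of 13 tested genes of lymphocyte quiescence, 1 rose and none fell (median -0.04), against the same background. It was Runx1, a transcription factor of blood cells and microglia (log2 fold change 1.27 ± 0.21 (SE), adjusted p = 0.0195). Runx1 missed the threshold without Caspase3 replicate 2, GFP replicate 2 or GFP replicate 3 (adjusted p = 0.0633, 0.115 and 0.0753). Foxp1, at 49.4 CPM in the Caspase3 group and 81.9 CPM in the GFP group, did not pass (adjusted p = 0.0975). It was highest in GFP replicate 3, with 62.4, 78.7 and 104.5 CPM in GFP replicates 1, 2 and 3. With 1 library left out, it passed only without GFP replicate 1 (0.0312). Without GFP replicate 3, the library with striatal transcripts, its log2 fold change was -0.53 against -0.73 (adjusted p = 0.165).

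Of 27 tested genes that are not Schlafen genes within 1000000 bases of the cluster, 2 were called higher in the Caspase3 group, none was called lower and 25 did not pass, beside 1.53% higher and 0.114% lower among all tested genes. Their median log2 fold change was 0.05. Nearest before the cluster, Nle1, a ribosome assembly factor, was at 2.44 ± 0.567 CPM in the Caspase3 group and 2.19 ± 0.508 CPM in the GFP group (SD, n = 3 each; edgeR adjusted p = 0.877). Nearest after it, the noncoding transcript AA465934 was at 0.840 ± 0.257 CPM in the Caspase3 group and 0.975 ± 0.0782 CPM in the GFP group (adjusted p = 0.864). Unc45b, whose gene overlaps Slfn5os, differed by 0.10 on the log2 scale and did not pass (adjusted p = 0.938). Those called higher were Ccl5, a T cell attractant, with 78, 37 and 32 counts in Caspase3 replicates 1, 2 and 3 against 1, 1 and 2 counts in GFP replicates 1, 2 and 3 (log2 fold change 5.13 ± 0.64, SE), and Ccl12, a monocyte attractant, with 125, 71 and 41 counts in Caspase3 replicates 1, 2 and 3 against 4, 5 and 3 counts in GFP replicates 1, 2 and 3 (4.33 ± 0.57, SE). Like Slfn1, both passed the filter on low counts through the Caspase3 libraries alone, with no GFP library at 0.443 CPM, so their calls follow from that filter in part. Neither was called without GFP replicate 2 (adjusted p = 0.06 and 0.0658).

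**Figure D4:**
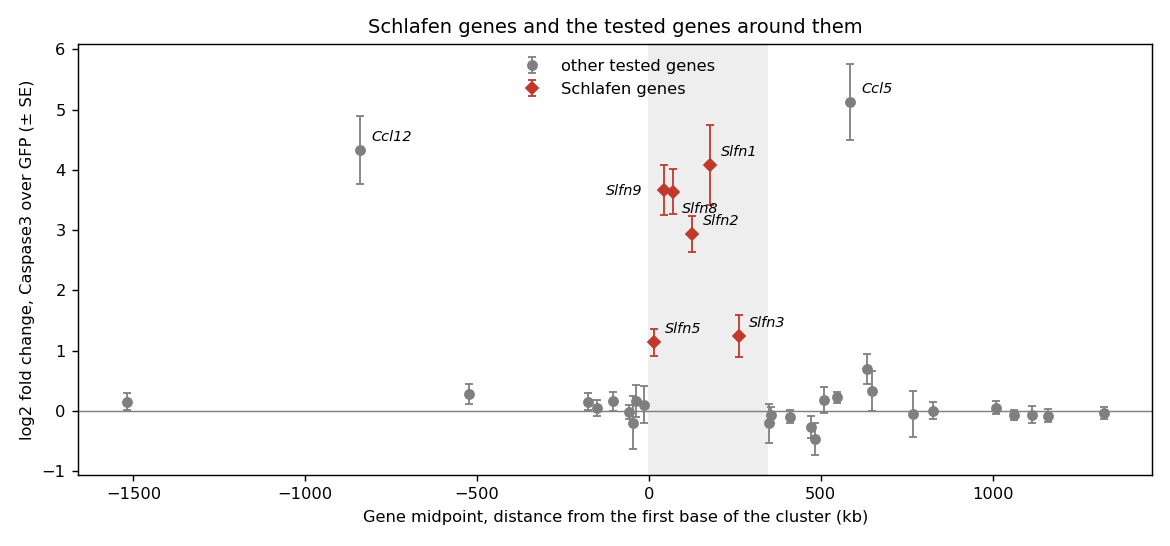
Log2 fold change (Caspase3 over GFP, bars are SE) of each tested gene within 1000000 bases of the Schlafen cluster, by its midpoint in kb from the cluster's first base; the grey band is the cluster. The 6 tested Schlafen genes (red) lie between 1.13 and 4.08, and of the 27 other genes (grey) 2 chemokine genes lie above 1; a long gene that reaches into the window has its midpoint outside it.

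Summed markers of microglia, of monocytes and neutrophils and of NK cells were higher in every Caspase3 library than in any GFP library. Those of T cells and of B cells overlapped. The monocyte and neutrophil sum was mostly Csf3r and the NK cell genes were not tested, so these sums do not establish a difference in those cells. The 9 microglia markers summed to 487 to 647 CPM in the Caspase3 group and 337 to 395 CPM in the GFP group, and 4 of 9 were called higher, beside 1.53% of all tested genes. The 8 monocyte and neutrophil markers summed to 10.6 to 12.9 CPM in the Caspase3 group and 2.77 to 5.59 CPM in the GFP group. Of 3 tested, 1 was called higher, beside 1.53% of all tested genes. That gene, Csf3r, made up most of the sum, with 9.10, 7.59 and 9.86 CPM in Caspase3 replicates 1, 2 and 3, against 4.01, 2.34 and 3.56 CPM in GFP replicates 1, 2 and 3. Plac8 was counted 12 to 28 times in the Caspase3 libraries and 0 to 4 times in the GFP libraries. It did not pass (edgeR adjusted p = 0.0755). Ly6c2, which was not tested, was counted 4 to 20 times in the Caspase3 libraries and 0 to 1 times in the GFP libraries. Ccr2 overlapped between the groups and did not pass, S100a8, S100a9 and Mpo had 0 to 2 counts per library, and the neutrophil marker Ly6g had no count in any library. Of 8 T cell markers, 5 were tested and 3 were called higher, beside 1.53% of all tested genes. Their sums, 4.73 to 8.96 CPM in Caspase3 libraries and 1.15 to 4.96 CPM in GFP libraries, overlapped. The high GFP value came from GFP replicate 3, where Cd4 alone was at 4.13 CPM. The called genes Cd8a, Cd8b1 and Cd3e passed the filter through the Caspase3 libraries alone, so these calls support nothing further, and Cd3d had no count in any GFP library. The 5 NK cell markers summed to 0.473 to 1.47 CPM in the Caspase3 group and 0.0396 to 0.233 CPM in the GFP group. Of these, 3 of 5 were at 0 in all GFP libraries, and none was tested. Nkg7, with 6 to 16 counts, was the largest term in each Caspase3 library, and Gzma and Klrb1c overlapped between the groups. Ncr1 had 1 to 3 counts and Klrb1c 0 to 2 in the Caspase3 libraries. B cell markers, also not tested, overlapped, at 0.0455 to 0.284 CPM in the Caspase3 group and 0.0792 to 0.395 CPM in the GFP group. Endothelial markers summed to 275 to 323 CPM in Caspase3 libraries and 254 to 338 CPM in GFP libraries. Astrocyte markers, at 872 to 1088 CPM in the Caspase3 group and 730 to 1015 CPM in the GFP group, and oligodendrocyte markers, at 6238 to 9187 CPM in the Caspase3 group and 5455 to 6614 CPM in the GFP group, overlapped as well, and none of either list was called. The part of these cell types in the Schlafen levels was not tested.

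The genes whose pattern was most like the family's were found by Pearson's r between log2 CPM and the log2 of the family's summed CPM, over 6 libraries and 13234 genes. They were Apobec3, a DNA deaminase that restricts retroviruses, Adora3, an adenosine receptor of microglia, Rnf213, a large ubiquitin ligase, Tor3a and Slc15a3, with r of 0.992 to 0.997. The difference between the groups carries most of this measure. After subtraction of the group means, the 5 most alike were Ppara, Ndrg2, Sfxn5, Fgfr3 and Pdxdc1 (r of 0.992 to 0.998). With the mean log2 CPM of the tested members in place of their sum, none of either 5 remained. Over the libraries, the first 5 were then Ifit3b, Ifit3, Dtx3l, Ifi209 and Gbp2. After subtraction of the group means they were Dtx3l, BC035044, Ifit3, Ifit3b and Fmnl2. The choice of weight thus decides which genes are named.

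Fold changes of the members kept their direction in each of the 15 alternative fits. Calls depended on single libraries and, for Slfn5 and Slfn3, on the method. Slfn3 was called in 1 of the 15, the edgeR fit with no filter on low counts (adjusted p = 0.0114). Without Caspase3 replicate 2, 3 of 6 members were called higher (Slfn2, Slfn8 and Slfn9), as were 1.18% of all tested genes. Without GFP replicate 2, edgeR called none of the 6, and 0.0% of all tested genes were called higher. Slfn5 also lost its call without GFP replicate 1 or GFP replicate 3 and, on all 6 libraries, with limma-voom (adjusted p = 0.0563), log2(FPKM + 0.1) (0.0799) and log2(FPKM + 1) (0.0990). It was called in 7 of the 15 alternatives. With GFP replicate 2 left out, the lowest adjusted p of any gene was 0.0521, while 6 of 6 members and 1262 genes in all had an unadjusted p under 0.05. Without GFP replicate 3, the library with striatal transcripts, the log2 fold changes were 1.22 for Slfn5, 3.5 for Slfn8, 3.47 for Slfn9, 2.82 for Slfn2, 3.53 for Slfn1 and 1.15 for Slfn3.

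**Figure D5:**
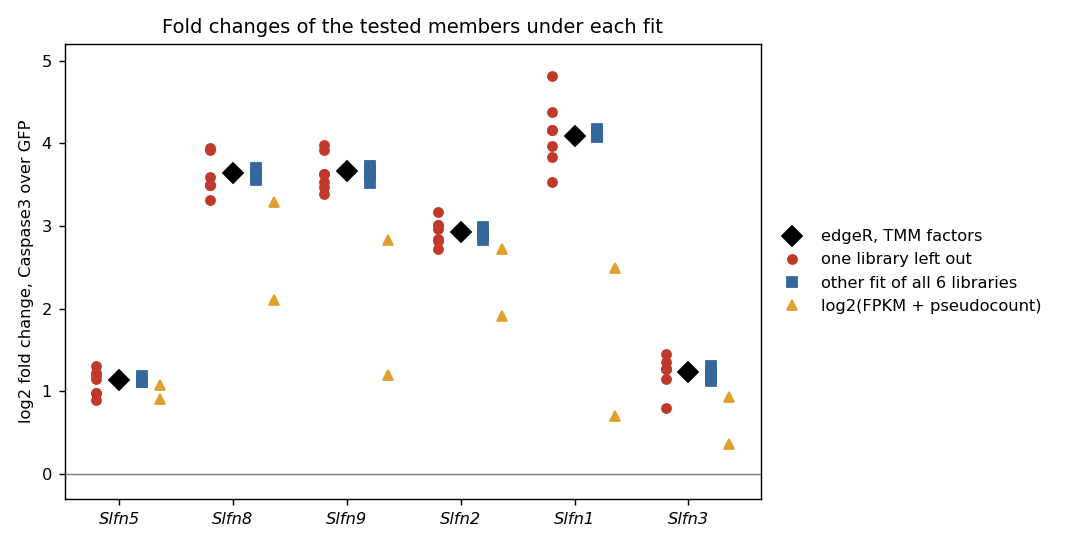
Log2 fold change (Caspase3 over GFP) of the 6 tested members in the edgeR fit with TMM factors (black), with 1 library left out (red), in other fits of all 6 libraries (blue) and on FPKM values with a pseudocount (yellow, the lower of each pair with a pseudocount of 1). Every value is above 0, and the largest shortfall is that of Slfn1, with 0.70 on log2(FPKM + 1) against 4.08.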

How the data were processed

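Bulk poly(A) RNA was measured in 6 libraries. The submitters' processing notes name the builds mm10 and GRCm38 and the tools featureCounts, HISAT2 and DESeq2, with no roles or versions. The kit labels the second strand, per the labels' protocols. The strand setting and multi-mapping rule of the counting have no record in these sources. The deposited whole-number counts of 53715 genes were tested. In the deposited FPKM table, values equalled counts per length times a constant per library (within 0.1%), and FPKM was used for levels between genes and in alternatives.

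Genes were tested with edgeR 4.0.16 (filterByExpr, TMM, glmQLFit, glmQLFTest), which kept 16721. The Benjamini-Hochberg threshold was 0.05. The SE is the absolute log2 fold change divided by the square root of F. On simulated counts of 16721 genes, 200 of them changed, edgeR recovered 21.6%, 62.9% and 92.2% of genes changed 1.5-, 2- and 4-fold, and 9.52% of all calls fell on genes simulated as unchanged. Replicates differed by more than sampling noise (mean chi-square per gene 12.6 to 32.8). Alternatives were DESeq2 1.42.0, limma 3.58.1, other scalings, no filter, log2(FPKM + 0.1), log2(FPKM + 1), leaving out each library, and a block for the sample number. The members and lists were chosen with earlier results of these data known.

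Named are the 7 members, other Slfn rows, the nearest tested neighbours, up to 4 called genes per list with the smallest adjusted p (some items are not reported here), and the 5 genes most like the family among those with a mean of at least 1 CPM (log2 of CPM + 0.05). Ifnar1, Ifnar2, Ang, Foxp1, Unc45b, Irf1 and the cell markers were named after their values were seen. Coding lengths, exon overlaps and shared transcript stretches come from GENCODE M21 (GRCm38). Figures were drawn with Matplotlib 3.10.9.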

Additional observations from a re-analysis of the deposited data

How the results depend on the processing

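The log2 fold changes of the 6 tested members were positive in all 15 alternatives. They ranged from 0.90 to 1.31 for Slfn5, 2.10 to 3.94 for Slfn8, 1.2 to 3.98 for Slfn9, 1.91 to 3.17 for Slfn2, 0.70 to 4.81 for Slfn1 and 0.36 to 1.45 for Slfn3. The lowest came from log2(FPKM + 1), except for Slfn5, and that pseudocount by construction shrinks low genes. The count of members called was 3 to 5 with 1 library left out, other than 0 without GFP replicate 2, and 4 to 6 in other fits of all 6 libraries. With the filter redone on the libraries without GFP replicate 2, an alternative chosen after seeing the data, 1 member (Slfn2) was called, 15 genes were higher and 2 lower over the whole table, and the interferon, transfer RNA, replication, quiescence and neighbour lists held 0. With 1 library left out, the lists held 0 to 7, 0 to 2, 0, 0 to 2 and 0 to 3 calls in that order. The replication list held 0 calls with limma-voom and on both FPKM scales. The quiescence list held 3 with no filter (Runx1 higher, Btg2 and Foxp1 lower), 2 with DESeq2 and 0 on both FPKM scales, and the neighbours held 6 with no filter, all chemokine genes. Over all genes, against 255 higher and 19 lower, there were 663 and 250 with no filter, 397 and 98 with DESeq2, 160 and 10 on log2(FPKM + 1), 131 and 13 without GFP replicate 3 and 0 and 0 without GFP replicate 2. The cause of these shifts was not tested. With the sample number as a replicate block, the same 5 members were called, and 378 genes were higher and 43 lower against 255 and 19 without it. Deviations of same-numbered libraries correlated at 0.0648, 0.178 and 0.0273 for numbers 1, 2 and 3, so not every pair exceeded 0.1 and the numbers were not taken as pairs. Replicates 2 and 3 of the Caspase3 group correlated best with their own number and replicate 1 with GFP replicate 3 (0.0793), so pairing was not settled by these data. Depth limits Slfn4, Slfn14 and Slfn1 in the GFP group.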
